A study of Mus musculus with 4 samples.

Results

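The neurexins Nrxn2 and Nrxn3, the neuroligins Nlgn1, Nlgn2 and Nlgn3 and the cerebellins Cbln1, Cbln2 and Cbln4 were followed across the cells of the mouse ventromedial prefrontal cortex (vmPFC). These 8 genes, of 31053 in the count tables, were chosen by name as organizers of synapses, with earlier results of these data known. Single-cell RNA sequencing was done on the prelimbic and infralimbic areas of male C57BL/6 mice. At 8 weeks of age, and some weeks before the tissue was taken, every mouse had received retrograde AAVs in the agranular insula, dorsomedial striatum, mediodorsal thalamus, basolateral amygdala and lateral hypothalamus, each virus expressing EGFP with a barcode of its own from a short CAG promoter. No mouse went without virus, so each comparison below is between neurons of injected animals. The unsorted group was 3 libraries of 1 mouse each, and the sorted group was 1 library of cells picked for EGFP from 3 pooled mice. The authors had assigned 9368 neurons, 7765 of them unsorted, to 7 excitatory subtypes named by layer and a marker gene. A neuron with 5 or more barcode UMIs (unique molecular identifiers, each 1 counted transcript) was called barcode-high, and one with 0 was called barcode-zero.

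Neurexins sit on the presynaptic membrane and reach across the cleft to neuroligins, which hold receptors and scaffolds on the postsynaptic side. Cerebellins are secreted and join neurexins to glutamate delta receptors, and Cbln4 is also known to bind neogenin and Dcc. In cortex, Nlgn1 is best known from excitatory synapses, Nlgn2 from inhibitory synapses, and Nlgn3 from both.

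The last 63 coding bases of 7 members, stop codon included, are shown because they hold the shared tail of the membrane proteins and let the family members be told apart. Both neurexins and all 3 neuroligins close with a short tail that binds PDZ domains of scaffold proteins, and the capitals in the first 5 sequences mark the 4 codons before the stop. In the Cbln1 and Cbln4 sequences the capitals mark the bases at which that pair differs. All are 5′ to 3′ on the coding strand of GRCm38, and each lies within the last coding exon of its gene.
Nrxn2, chr19:6532086-6532148, plus strand: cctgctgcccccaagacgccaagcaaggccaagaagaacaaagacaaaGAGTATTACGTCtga
Nrxn3, chr12:90332348-90332410, plus strand: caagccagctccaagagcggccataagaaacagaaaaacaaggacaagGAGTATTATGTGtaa
Nlgn1, chr3:25433638-25433700, minus strand: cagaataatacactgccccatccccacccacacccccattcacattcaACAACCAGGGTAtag
Nlgn2, chr11:69825203-69825265, minus strand: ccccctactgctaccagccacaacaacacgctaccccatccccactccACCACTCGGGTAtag
Nlgn3, chrX:101320200-101320262, plus strand: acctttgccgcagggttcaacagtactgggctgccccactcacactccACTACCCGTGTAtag
Cbln1, chr8:87470254-87470316, minus strand: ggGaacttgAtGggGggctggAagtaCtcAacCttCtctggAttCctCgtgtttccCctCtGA
Cbln4, chr2:172037370-172037432, minus strand: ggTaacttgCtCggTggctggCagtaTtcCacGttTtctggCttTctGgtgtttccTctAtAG

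The neurexin ends matched at 39 of 63 bases and at 10 of the 12 bases of the capital codons, while the 3 neuroligin pairs matched at 31 to 38 bases and at 9 of the 12. Cbln1 and Cbln4 matched at 47 of 63 bases. None of the 28 pairs of members shared an identical stretch of 91 bases, the length of a read, anywhere in their transcripts. The genes lie at chr19:6418731-6544169 (Nrxn2), chr12:88722876-90334935 (Nrxn3), chr3:25426215-26332460 (Nlgn1), chr11:69823122-69837784 (Nlgn2), chrX:101299168-101325963 (Nlgn3), chr8:87468405-87472609 (Cbln1) and chr2:172036233-172043466 (Cbln4). Genes on the opposite strand overlapped Nrxn2 (Gm14964 and Slc22a12), Nlgn1 (A830092H15Rik) and Cbln1 (Gm2694). The authors ran Cell Ranger with its default settings, which count reads on the sense strand, so these partners are counted apart from the members.

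The libraries held 2075 to 8040 cell barcodes and 54749198 to 87841541 UMIs, with a median of 21343.5 to 31669 UMIs per neuron. Each of the 7 marker genes that name the subtypes was highest in its own subtype. Slc17a7, the vesicular glutamate transporter of cortical excitatory neurons, stood at 704 to 1255 CPM (UMIs of the gene in 1000000 UMIs of the sum) in every subtype, and Gad1 of inhibitory neurons at 7.41 CPM or less. Between 18 and 62 cell barcode sequences of a library also occurred in another library. The pooled barcode count is the feature used here and was taken as the sum of all 5 viruses, which was not tested. A barcode-zero neuron can be one whose barcode was missed, and in the sorted library it had passed a sort for EGFP.

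All 8 genes were detected in excitatory neurons, but the cerebellins varied far more between subtypes than the neurexins and neuroligins. From the lowest to the highest subtype mean of the unsorted libraries, the level rose 115-fold for Cbln4, 81.4-fold for Cbln2 and 66.6-fold for Cbln1. The same ratio was 1.46 for Nlgn3, 1.85 for Nlgn2, 1.93 for Nrxn2, 3.21 for Nlgn1 and 3.43 for Nrxn3. The lowest mean rested on 1 UMI for Cbln4 (L5-Bcl6) and 2 UMIs for Cbln1 (L2/3-Calb1), so the size of these folds is uncertain. For Cbln2 it rested on 47 UMIs (L5-Bcl6). The levels below are means ± SD of the 3 unsorted libraries, described without a test between subtypes. Counts come from the 3′ ends of transcripts, so levels are compared across cells and not between genes.

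The Cbln2 level was highest in L5-Htr2c neurons, at 464.0, 496.7 and 505.6 CPM in the 3 unsorted libraries (488.8 ± 21.9, n = 3). L6-Syt6, the subtype with the most neurons, held more Cbln2 UMIs in all, 4114 against 2284 in L5-Htr2c. The next subtype was L6-Syt6 at 41.2 ± 1.7 CPM, so L5-Htr2c stood 11.9-fold above it, a lead that 0.459% of 13068 genes reached in whichever subtype they favoured. Below these lay L2/3-Calb1 (29.1 CPM), L6-Npy (25.2), L5-S100b (22.0) and L2/3-Rorb (16.1), whose library ranges each touched the next. L5-Bcl6 was lowest at 6.01 CPM and apart from the rest. At least 1 Cbln2 UMI was found in 99.0% of L5-Htr2c neurons, against 42.0% in L6-Syt6 and 4.34% in L5-Bcl6. When every neuron was thinned to 10000 UMIs, these shares were 98.6%, 26.7% and 2.78%. The median depth was 14549 UMIs in L5-Htr2c, 23076 in L6-Syt6 and 23703 in L5-Bcl6, so the subtype with the most Cbln2 was the shallowest of the 3. Microglia-like cells, which should lack the cerebellins, held Cbln2 at 1.00 CPM. At their median depth of 4157 UMIs a Cbln2 UMI was found in 12 of 2888 cells (0.416%), and a Cbln1 or Cbln4 UMI in 0.

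Cbln1 was led by L6-Npy at 22.3 ± 3.96 CPM (20.3, 19.8 and 26.9) and L5-S100b at 20.8 ± 1.96 CPM (20.1, 19.3 and 23.0), whose ranges overlapped. L6-Syt6 followed at 9.10 CPM, apart from both. L5-Bcl6 (3.78 CPM), L5-Htr2c (3.13) and L2/3-Rorb (2.21) overlapped with their neighbours, and L2/3-Calb1 held 0.335 CPM. A Cbln1 UMI was present in 35.9% of L5-S100b, 30.8% of L6-Npy and 16.5% of L6-Syt6 neurons, or 17.8%, 18.0% and 8.45% at 10000 UMIs. Cbln1 was thus highest in 3 deep-layer subtypes and low in both layer 2/3 subtypes. Cbln4 was instead highest in L2/3-Rorb, with 9.90, 14.3 and 15.2 CPM (13.1 ± 2.83), 2.29-fold above L5-S100b at 5.72 CPM, a lead that 3.95% of genes reached. L6-Npy (2.23 CPM) and L6-Syt6 (1.61) came next. The other layer 2/3 subtype, L2/3-Calb1, held only 0.998 CPM, and L5-Htr2c and L5-Bcl6 held less. A Cbln4 UMI was found in 14.8% of L2/3-Rorb neurons and 6.40% of L5-S100b neurons. Inhibitory neurons also carried Cbln4, and 540 of 564 L2/3-Rorb neurons had no UMI of Gad1 or Gad2. In those 540 the Cbln4 level was 13.7 ± 3.06 CPM, as high as in the whole subtype.

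**Figure D1:**
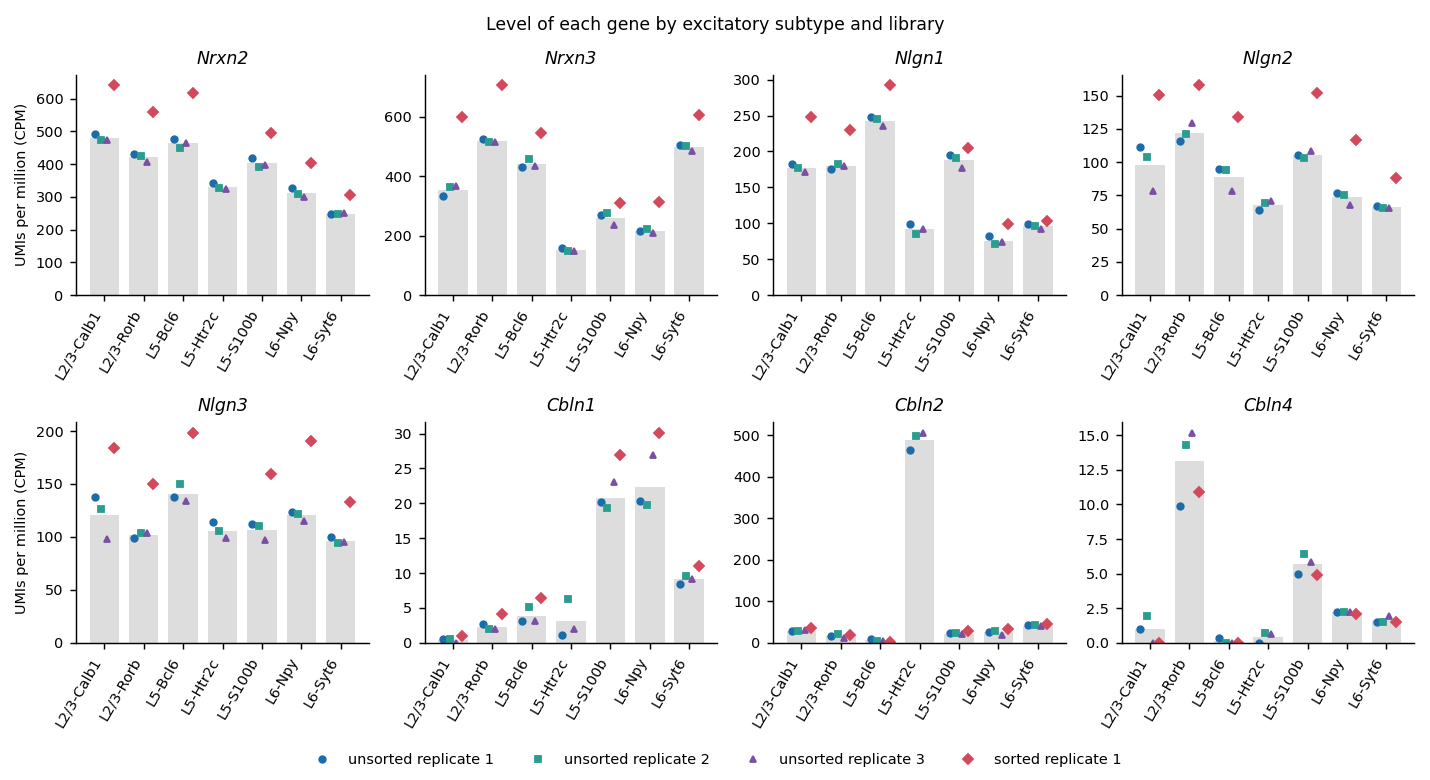
Level of each of the 8 genes in CPM (vertical axes, linear and starting at 0) in the 7 excitatory subtypes (horizontal axes), with 1 point for each library and a bar for the mean of the 3 unsorted libraries. Cbln2 stands at 464.0 to 505.6 CPM in L5-Htr2c and below 50 CPM elsewhere, while the neurexins and neuroligins are found in all subtypes.

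Nrxn3 was the neurexin that separated subtypes most. Its level was 519 ± 6.36 CPM in L2/3-Rorb, 497 ± 10.1 in L6-Syt6, 442 in L5-Bcl6 and 355 in L2/3-Calb1. L5-S100b (259 CPM), L6-Npy (216) and L5-Htr2c (151 ± 4.85) followed. No 2 neighbours in that order overlapped between libraries. L2/3-Rorb led L6-Syt6 by only 1.04-fold, and TMM scaling, which allows for differences in RNA composition, exchanged these 2 places (511 and 554 CPM). At least 1 Nrxn3 UMI was found in 99.8% of L2/3-Rorb and 64.6% of L5-Htr2c neurons, against 5.19% of microglia-like cells. Thus L5-Htr2c, highest for Cbln2, was lowest for Nrxn3.

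Nrxn2 was more even, and followed another order. L2/3-Calb1 (480.0 ± 11.5 CPM) and L5-Bcl6 (463) overlapped at the top, L2/3-Rorb (421) overlapped with L5-S100b (402), L5-Htr2c (331) with L6-Npy (311), and L6-Syt6 was lowest at 249 ± 1.18 CPM. On TMM-scaled libraries L5-Bcl6 (464 CPM) passed L2/3-Calb1 (454 CPM). L6-Syt6 neurons therefore combined the lowest Nrxn2 with a high Nrxn3, and this pairing held under both scalings.

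Among the neuroligins, Nlgn1 was highest in L5-Bcl6 at 243 ± 6.5 CPM (248, 246 and 236), 1.29-fold above L5-S100b at 188 CPM. L5-S100b, L2/3-Rorb (180) and L2/3-Calb1 (177) overlapped, L6-Syt6 (95.6) overlapped with L5-Htr2c (92.2), and L6-Npy was lowest at 75.8 CPM. Nlgn2 was highest in L2/3-Rorb at 122 ± 6.84 CPM (116, 121 and 129). Its next 3 subtypes, L5-S100b (105.5), L2/3-Calb1 (97.7) and L5-Bcl6 (89.1), formed an overlapping run, as did L6-Npy (73.5), L5-Htr2c (67.9) and L6-Syt6 (66.0) below them. Nlgn3 was the most even member. It ran from 141 ± 8.47 CPM in L5-Bcl6, which overlapped with L2/3-Calb1 (121), in turn overlapping with L6-Npy (120), down to 96.5 CPM in L6-Syt6, where L5-S100b (107), L5-Htr2c (106) and L2/3-Rorb (102) were close by.

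For 5 of the 8 members (Nrxn3, Nlgn1, Nlgn2, Cbln2 and Cbln4) the leading subtype lay above every other subtype in all 3 unsorted libraries. Among all 13068 genes with a mean of at least 1 CPM, 33.9% did so. Fewer members did so in barcode-zero neurons alone or by the mean of each cell's own CPM. The lead itself was small for most members, since 23.7% of genes led by as much as Nlgn1. In the sorted library the neurexin and neuroligin levels were 1.08 to 1.69 times the unsorted mean in each of the 6 subtypes with enough sorted neurons, beside a median of 0.07 to 0.13 on the log2 scale over all genes. Cbln1 was at 1.22 to 2.71 times, Cbln2 at 0.245 (L5-Bcl6) to 1.36 times and Cbln4 at 0 to 0.931 times the unsorted mean. Sorting, pooling of mice and depth cannot be told apart with 1 sorted library, and no test was made.

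Across the 21 sums of the 3 unsorted libraries and 7 subtypes, the members' patterns were correlated most for Nrxn2 and Nlgn1 (r = 0.85) and least for Nrxn3 and Cbln2 (r = -0.69). These 21 points share libraries and are a description. Of 9012 genes, those nearest in pattern were Bhlhe22 (r = 0.96) for Nrxn2, B3gat1 (0.88) for Nrxn3 after a gene with a duplicated symbol, Ndst3 (0.97) for Nlgn1 and Tmem2 (0.89) for Nlgn3. For the cerebellins they were Rxfp1 (0.93) for Cbln1 after the overlapping Gm2694 (0.95), Kremen1 (0.97) for Cbln2 and Adk (0.92) for Cbln4.

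Outside the excitatory subtypes, inhibitory neurons and oligodendrocyte precursors held the highest levels of 6 members. Inhibitory neurons of CGE-like type, from the caudal ganglionic eminence, carried Nrxn3 at 2083 ± 111 CPM, and those of MGE-like type, from the medial eminence, at 1156 ± 15.4 CPM. The CGE-like level was 4.01 times that of L2/3-Rorb. Cbln4 stood at 24.2 CPM in CGE-like and 19.0 CPM in MGE-like neurons, and Cbln2 at 246 ± 36.2 and 6.30 CPM. Within the CGE-like neurons, the cluster led by Vip and Tac2 held Cbln2 at 416.5 CPM and Cbln4 at 58.7 CPM. The cluster led by Cck and Cnr1 held more Nrxn3 (3369 CPM) and less Cbln2 (179 CPM), and the cluster led by Npy and Reln held Cbln2 at 37.3 CPM. The 3 clusters thus split the members between them, since the 2 cerebellins peaked in one and Nrxn3 in another.

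Oligodendrocyte precursor-like cells were the highest class for Nrxn2 (1016 ± 24.8 CPM), Nlgn1 (287 ± 5.11), Nlgn2 (177 ± 10.2) and Nlgn3 (413 ± 24.5). All 4 levels were lower in committed precursor-like cells, at 229, 106, 118 and 217 CPM, and lower again in oligodendrocyte-like cells, where Nrxn2 was 80.7 CPM and the other 3 were 24.5 CPM or less. Astrocyte-like cells held Nrxn2 at 266 CPM, Nlgn1 at 97.9 and Nlgn3 at 84.5. Microglia-like cells held Nrxn2 at 11.4 CPM and Nrxn3 at 14.2 CPM, and endothelial-like cells held Nrxn3 at 14.3 CPM. The 2 members whose highest class did not pass the highest excitatory subtype were Cbln1, at 4.43 CPM in oligodendrocyte precursor-like cells (0.198 times L6-Npy), and Cbln2 (0.503 times L5-Htr2c). Of all 13068 genes, 70.7% were higher in another class than in any excitatory subtype, so 6 of 8 members is close to that share.

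**Figure D2:**
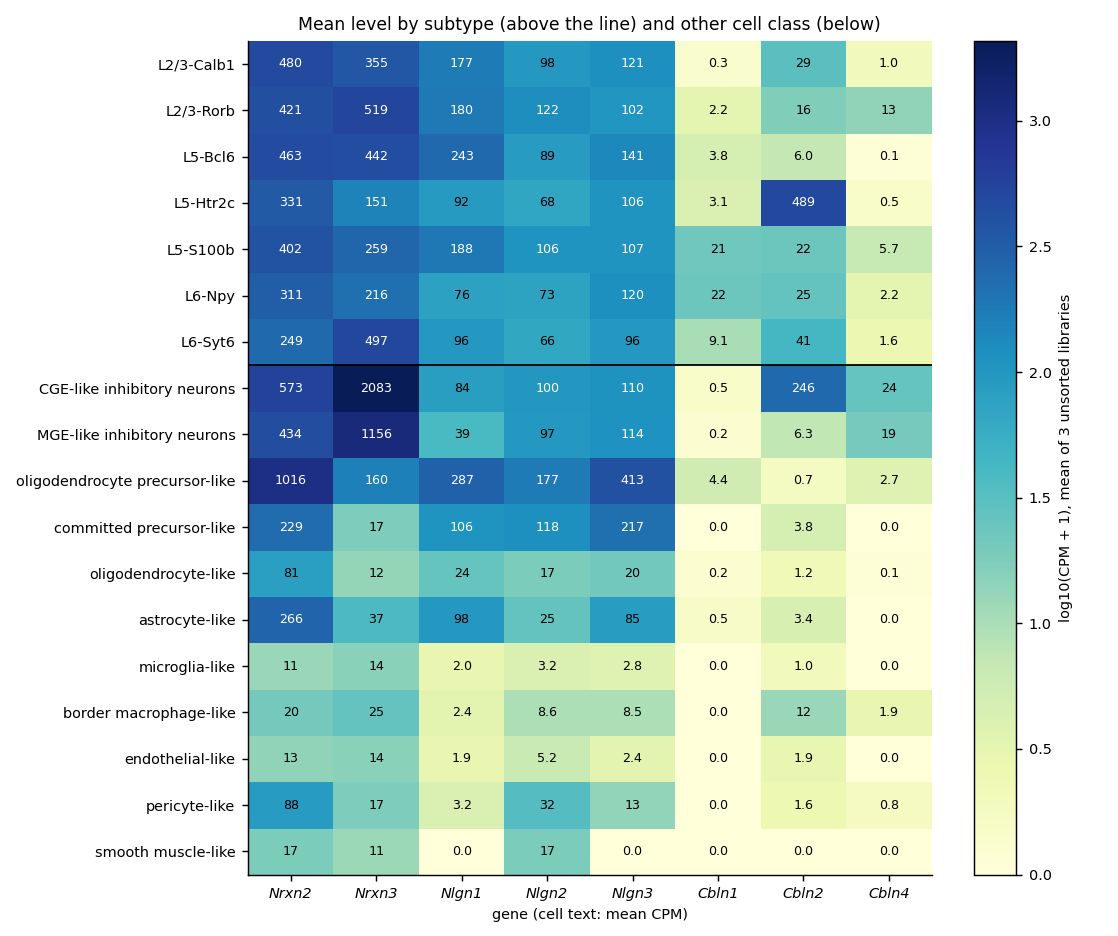
Mean CPM of the 3 unsorted libraries for each gene (columns) in the 7 excitatory subtypes (rows above the line) and the other cell classes (rows below), coloured by log10(CPM + 1). Nrxn3 is highest at 2083 CPM in CGE-like inhibitory neurons, and Nrxn2 at 1016 CPM in oligodendrocyte precursor-like cells.

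Within a subtype, barcode-high neurons were then compared with barcode-zero neurons of the same library, to ask whether the members differ between neurons that took up virus from the 5 targets and their neighbours. Counts were summed per library and group and tested with edgeR across all genes, with library as a block. A gene was called at an adjusted p under 0.05 with a log2 fold change of at least 0.5 in either direction. In L6-Syt6, 1635 barcode-high neurons stood against 2327 barcode-zero neurons in 4 libraries, and Cbln1 and Cbln2 were the 2 members called, both lower in barcode-high neurons. Of all 13030 genes tested there, 1.67% were called, 0.867% lower and 0.806% higher.

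The Cbln2 level in barcode-high L6-Syt6 neurons was 35.3, 31.2 and 31.3 CPM in unsorted libraries 1 to 3 and 34.7 CPM in the sorted library. In barcode-zero neurons it was 46.0, 48.2 and 43.3 CPM, and 66.5 CPM in the sorted library. All 4 barcode-high sums lay below all 4 barcode-zero sums, as for 6.09% of the genes tested, with a log2 fold change at -0.53 ± 0.0739 (SE) and an edgeR adjusted p of 0.00579. Neurons with 1 to 4 barcode UMIs lay between, at 42.2, 44.4, 40.7 and 61.4 CPM. In the sorted barcode-zero sum of 94 neurons, 3 neurons carried 39 of the 179 Cbln2 UMIs. The Cbln2 call was lost without the sorted library, where the fold was -0.46 and under the limit (edgeR adjusted p = 2.57e-10), and without unsorted library 2 (-0.51, adjusted p = 0.094).

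For Cbln1 the barcode-high sums held 6.74, 7.66, 5.60 and 9.58 CPM in the same order of libraries, and the barcode-zero sums 10.0, 11.1, 10.9 and 12.3 CPM. The groups did not overlap, with a log2 fold change at -0.58 ± 0.116 (SE) and an edgeR adjusted p of 0.0213. In the unsorted libraries a Cbln1 UMI was found in 12.0% to 14.2% of barcode-high neurons and 17.6% to 19.3% of barcode-zero neurons. The sorted library gave 23.8% and 23.4%, so there the CPM and not the share of neurons was lower. The median depth over these neurons was 25623 UMIs in the barcode-high and 22472 in the barcode-zero group, so the group with less Cbln1 and Cbln2 was the deeper one. The Cbln1 call stood without the sorted library (-0.65, edgeR adjusted p = 1.23e-05) and was lost without unsorted library 1 (-0.60, adjusted p = 0.106), 2 (-0.61, adjusted p = 0.132) or 3 (-0.46, adjusted p = 0.109). Neurons with UMIs of both genes made up 6.03%, 6.20% and 4.79% of the unsorted barcode-high groups and 7.21%, 8.22% and 8.08% of the barcode-zero groups. In the sorted library the shares were 14.97% and 14.89%.

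The other 6 members were not called in L6-Syt6. Nlgn3 was lower in the barcode-high sum of all 4 libraries (93.5, 86.4, 89.7 and 120.4 CPM against 102, 98.7, 101 and 162), with a log2 fold change of -0.18 and an edgeR adjusted p of 0.067. Nrxn3 had a value of -0.10 (adjusted p = 0.228) and Nlgn2 -0.10 (adjusted p = 0.246), each lower in 4 of 4 libraries. Nrxn2 and Nlgn1 both had 0.03, and Cbln4, at 2.3 CPM or less in every sum, had -0.23 (adjusted p = 0.690).

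**Figure D3:**
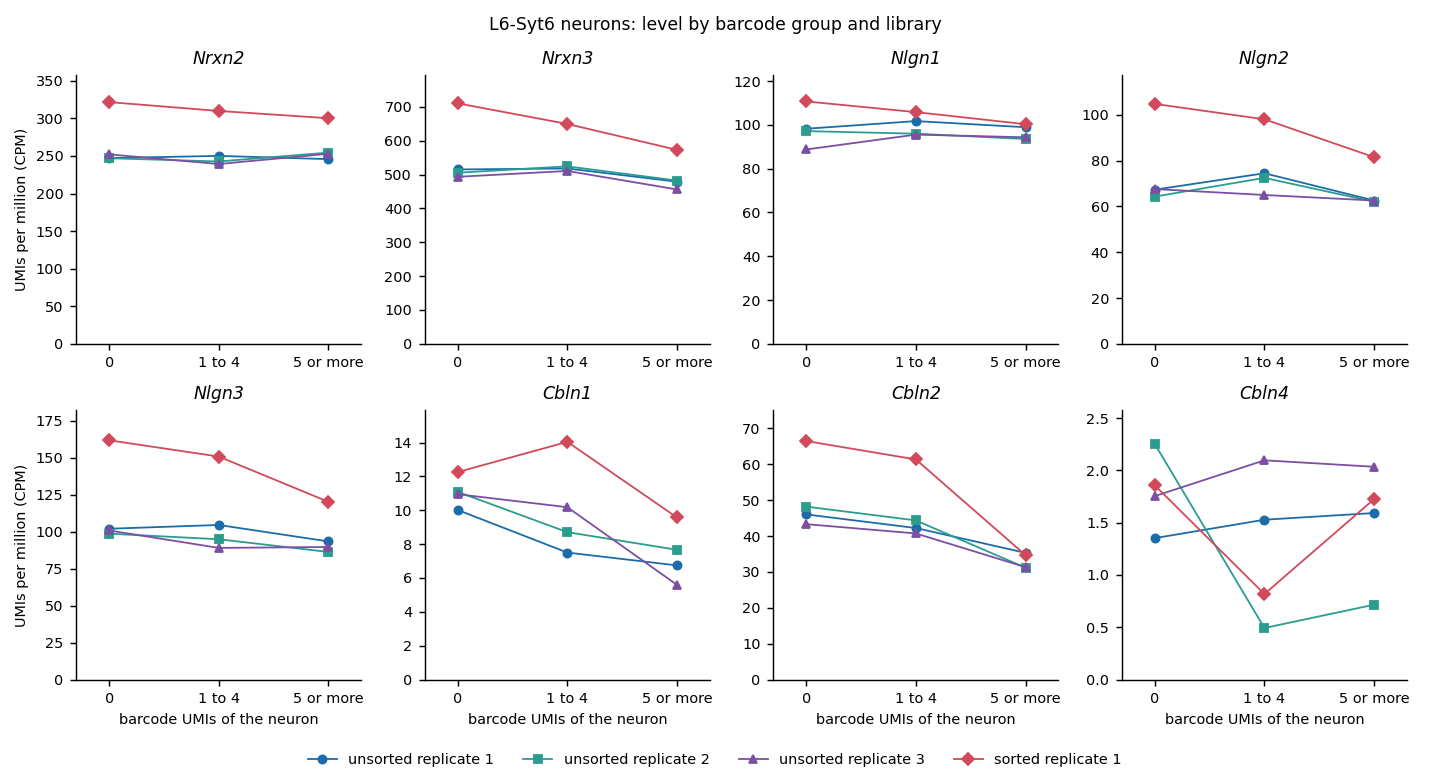
CPM of each gene (vertical axes, from 0) in L6-Syt6 neurons with 0, 1 to 4, or 5 or more barcode UMIs (horizontal axes), 1 line for each library. In all 4 libraries the Cbln1 and Cbln2 lines end below where they start, while Nrxn2 and Nlgn1 stay nearly level.

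Genes that mark other deep-layer neurons moved with the same groups. Tshz2 was 4.45 CPM in barcode-high and 16.5 CPM in barcode-zero sums (log2 -1.85) and Cplx3 3.04 and 9.53 CPM (-1.61), both called. Ctgf, a marker of the deepest layer, was 28.4 and 37.2 CPM, lower with the barcode in 3 of 4 libraries, and under the fold limit (log2 -0.39, edgeR adjusted p = 0.045). Among the marker lists of other cell classes, Nxph1 and Sst (2 of the 3 MGE markers tested), Lamp5 (1 of 4 CGE markers) and Rgs5 (1 of 2 pericyte markers, 7.90 against 24.7 CPM) were called. The MGE list summed to 157 to 198 CPM in barcode-high and 191 to 231 CPM in barcode-zero sums, most of it Satb1, and the CGE list to 15.4 to 27.6 and 21.5 to 25.2 CPM. The pericyte list summed to 6.31 to 11.3 CPM in barcode-high and 24.1 to 35.3 CPM in barcode-zero sums. The general inhibitory list summed to 0.952 to 8.48 CPM in barcode-high and 0.743 to 6.65 CPM in barcode-zero sums. The part of these cells in the Cbln1 and Cbln2 difference was not tested, apart from neurons with Tshz2, Cplx3 or Nxph4. Without neurons holding any UMI of those 3 genes, chosen after the data were seen, 1514 barcode-high and 2008 barcode-zero neurons remained. Cbln2 was then -0.43 (edgeR adjusted p = 0.00557) and Cbln1 -0.47 (adjusted p = 0.0461), both still lower but under the fold limit. Htr2c, the marker of the Cbln2-rich subtype, was 1.33 CPM in barcode-high and 1.06 CPM in barcode-zero sums.

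In L5-S100b, 958 barcode-high and 195 barcode-zero neurons were compared, and no member was called, beside 2.7% of 11477 genes. Cbln2 was 23.6, 22.7, 14.6 and 22.0 CPM in barcode-high sums (unsorted 1 to 3, then sorted) and 11.5, 6.48, 40.6 and 9.72 CPM in barcode-zero sums. It was higher with the barcode in 3 of 4 libraries and lower in unsorted library 3, for a log2 fold change at 0.26 ± 0.293 (SE, edgeR adjusted p = 0.727). In the barcode-zero sum of that library, 12 of 54 neurons carried 42 Cbln2 UMIs, 18 of them in 1 neuron. In the sorted library, 2 of 24 barcode-zero neurons carried all 7 Cbln2 UMIs, and 3 barcode-high neurons carried 50 of 160. Without unsorted library 3 the Cbln2 value was 1.31 (edgeR adjusted p = 0.00061). Cbln4 behaved alike, at 5.09, 4.04, 2.27 and 4.82 CPM against 4.11, 1.08, 24.2 and 1.39 CPM, where the log2 value of -0.94 (adjusted p = 0.322) became 0.98 without unsorted library 3. Those barcode-zero sums held only 5, 1, 25 and 1 Cbln4 UMIs. Cbln1 was 21.4, 19.4, 24.8 and 26.7 CPM in barcode-high sums and 15.6, 17.3, 18.4 and 33.3 CPM in barcode-zero sums (0.21, adjusted p = 0.616). The groups of all 3 cerebellins overlapped. Subtype markers moved with the same groups, since S100b itself was 56.9 CPM in barcode-high and 27.6 CPM in barcode-zero sums (log2 1.16, called, higher in 4 of 4 libraries) and Npy 3.13 and 7.39 CPM (-1.23, called, lower in 3 of 4). Their part in the values of this subtype was not tested.

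In L6-Npy no tested member was called, beside 0.801% of 10365 genes. Npy, the marker of this subtype, was lower with the barcode in 4 of 4 libraries (186.5 against 252.8 CPM). Its log2 value of -0.44 was under the fold limit (edgeR adjusted p = 1.53e-05), and its part in the member values was not tested. Cbln2 was higher in the barcode-high sum of 4 of 4 libraries, at 33.4, 28.8, 22.0 and 40.7 CPM against 23.1, 24.1, 20.0 and 29.8 CPM, or 0.37 ± 0.150 (SE) as a log2 value (edgeR adjusted p = 0.310). Nrxn3 was also higher in 4 of 4 (0.18, adjusted p = 0.158), and Cbln1 had 0.21 (adjusted p = 0.732). Cbln4 did not pass the filter on low counts. Its barcode-high sums held 11, 8, 12 and 12 UMIs (3.67, 2.99, 3.71 and 3.85 CPM) and its barcode-zero sums 0, 1, 1 and 0 UMIs. Every barcode-high sum thus lay above every barcode-zero sum, as for 1.63% of the genes tested, a set that leaves Cbln4 out. Over all 4 libraries, 43 UMIs stood against 2, a ratio of CPM of 8.33 with an exact 95% interval of 2.17 to 71.0 that covers counting error only. The interval was computed only for this case and for Cbln2 in L5-Bcl6, both with sums that did not overlap, and is no test. No more than 7 neurons of a barcode-high sum carried these Cbln4 UMIs.

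**Figure D4:**
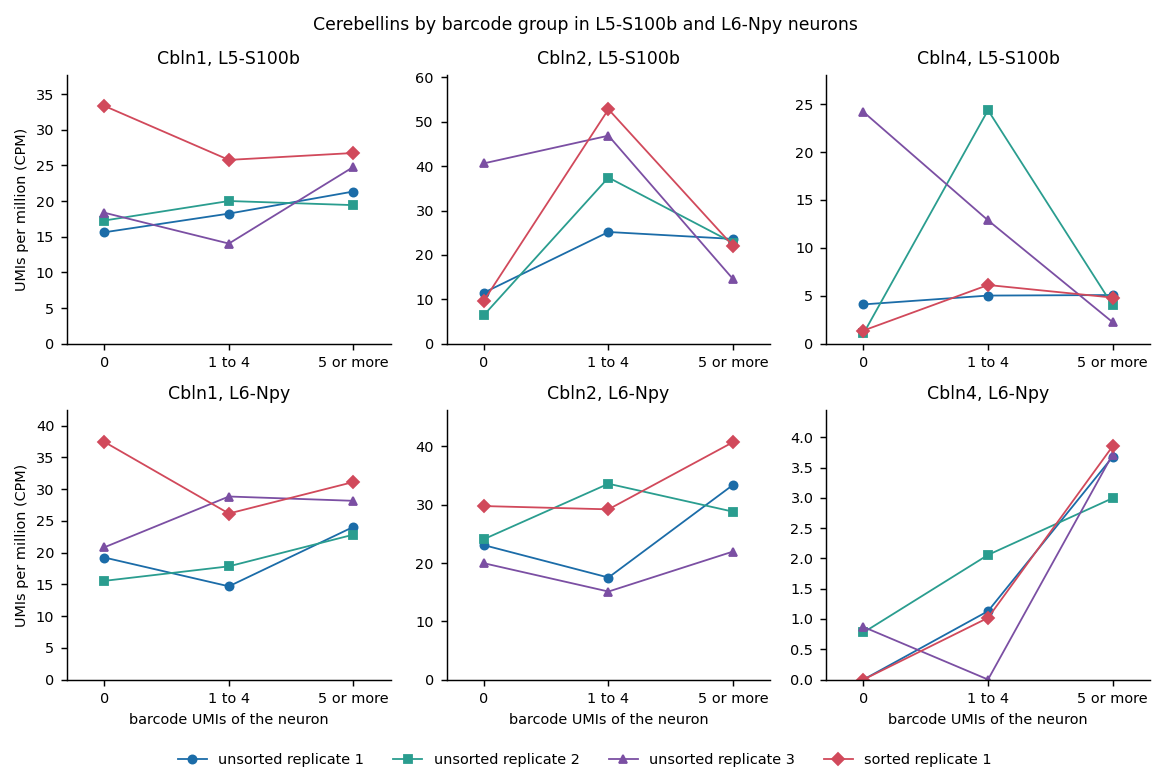
CPM of Cbln1, Cbln2 and Cbln4 (vertical axes, from 0) by barcode group, with L5-S100b neurons above and L6-Npy neurons below, and 1 line for each library. Unsorted library 3 departs from the other 3 libraries in L5-S100b for Cbln2 (40.6 CPM at 0 barcode UMIs) and Cbln4 (24.2 CPM), and all 4 lines rise for Cbln4 in L6-Npy.

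The remaining fits gave no called member, beside 0.139% of 10038 genes in L2/3-Rorb, 0.18% of 8340 in L2/3-Calb1 and 0.0686% of 8752 in L5-Bcl6. The largest member values in L2/3-Rorb were 0.50 ± 0.278 (SE) for Cbln2 (edgeR adjusted p = 0.769) and -0.32 for Cbln4 (adjusted p = 0.890). In L2/3-Calb1, with 3 libraries, Cbln2 had 0.41 (adjusted p = 0.930). With a library left out, Cbln2 ranged from 0.25 to 1.18 in L2/3-Rorb and from 0.24 to 0.67 in L2/3-Calb1. In L5-Bcl6, also with 3 libraries, Nrxn3 was 460 CPM on average in barcode-high and 368 CPM in barcode-zero sums, or 0.32 ± 0.0835 (SE) as a log2 value (edgeR adjusted p = 0.232). Nlgn2 was 90.2 and 73.8 CPM (0.28, adjusted p = 0.823), and Nrxn2 was lower with the barcode at 450.1 and 505 CPM (-0.17, adjusted p = 0.732). The groups of these 3 genes did not overlap, as for 12.2% of the genes tested there. Cbln2 in L5-Bcl6 did not pass the filter, with 44 UMIs in the barcode-high sums, held by 12 neurons, and 1 UMI in the barcode-zero sums. In L5-Htr2c only 2, 2 and 4 unsorted and 2 sorted neurons were barcode-high, and no fit was made. There Cbln2 was 470.1, 506 and 497 CPM in barcode-zero neurons and 420.3, 476 and 529 CPM in those with 1 to 4 barcode UMIs, and the ranges of the 2 groups overlapped. The p-values of all fits measure the spread between 3 or 4 libraries.

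**Figure D5:**
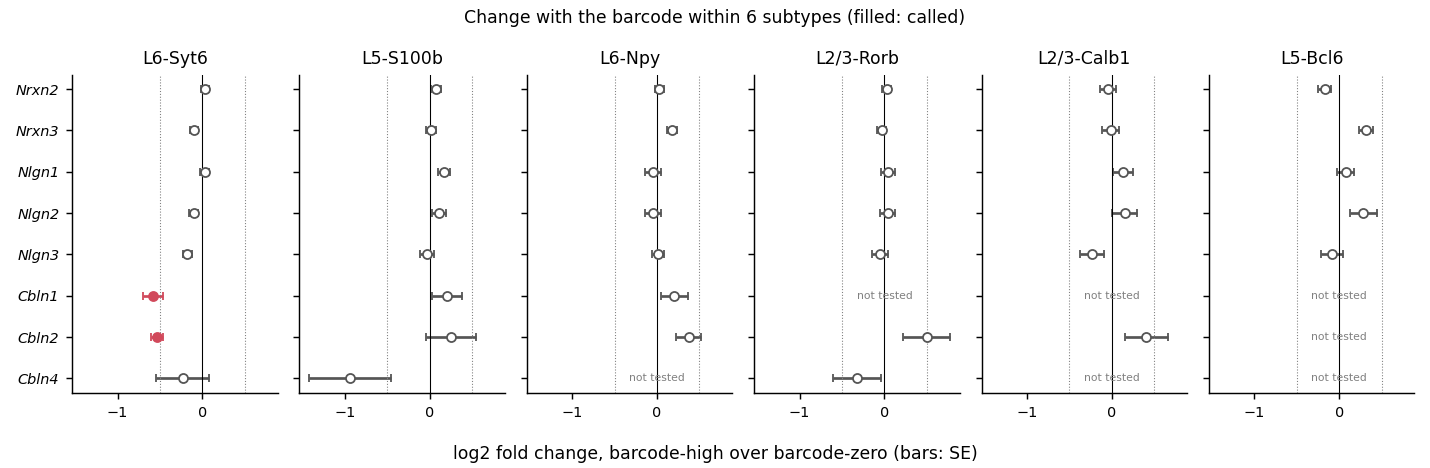
Log2 fold change of each gene, barcode-high over barcode-zero (horizontal axes, with SE bars), in the 6 subtypes with a fit, with filled points for called genes and dotted lines at the fold limit of 0.5. Only Cbln1 (-0.58) and Cbln2 (-0.53) in L6-Syt6 are called.

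The change with the barcode was also compared between subtypes, by an interaction term for each of the 15 pairs of subtypes. For Cbln1 the change in L6-Syt6 was lower than in L5-S100b by a log2 difference of -0.80 (± 0.206 SE, edgeR adjusted p = 0.0105), beside 3.88% of 11388 genes called for that pair. It was lower than in L6-Npy by -0.79 (± 0.199 SE, edgeR adjusted p = 0.0167), beside 1.91%. For Cbln2 the change in L6-Syt6 was lower than in L6-Npy by -0.91 (± 0.258 SE, edgeR adjusted p = 0.0358). The other 13 pairs gave no call of a member, beside 0.338% of their genes. For Nrxn3 the change in L6-Syt6 was lower than in L5-Bcl6 by -0.45 (edgeR adjusted p = 0.0106) and than in L6-Npy by -0.29 (adjusted p = 0.0362). Both Nrxn3 differences were under the fold limit. Both Cbln1 differences stood without the sorted library (-1.03 and -1.09) and did not pass when an unsorted library was left out, where they ranged from -0.82 to -0.58 and from -0.79 to -0.59. The Cbln2 difference stood without unsorted library 3 (-1.01) and did not pass without unsorted library 1 (-0.96) or 2 (-0.93) or the sorted library (-0.78).

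Genes of the same system were read from 2 lists. Of 51 other organizers across the synapse, 47 were tested in L6-Syt6, with a median log2 fold change of -0.06. C1ql3, a secreted relative of the cerebellins, was the only 1 called, beside 1.67% of all genes. It was 15.2, 17.8, 29.1 and 18.1 CPM in barcode-high and 7.44, 6.88, 11.3 and 28.2 CPM in barcode-zero sums (log2 1.00, edgeR adjusted p = 0.0404), higher in the 3 unsorted libraries and lower in the sorted one. In the barcode-high sum of unsorted library 3, 1 neuron carried 59 of the 286 C1ql3 UMIs, and the top 3 neurons carried 114. Of 35 binding partners, all tested and with a median of -0.07, the neurexophilins Nxph2 (1.75 against 5.08 CPM, log2 -1.47), Nxph1 (0.506 against 1.46 CPM, -1.40) and Nxph4 (2.01 against 3.74 CPM, -0.86) were called lower. Neurexophilins are secreted ligands of neurexins. The median of all genes was -0.01, and 0.867% of them were called lower. Nxph1 is also on the MGE marker list above, and Nxph4 is 1 of the 3 genes used above to leave out neurons. The part of such cells in the neurexophilin differences was not tested.

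In L5-S100b, 3 of 47 organizers tested were called lower with the barcode, beside 1.6% of all genes. They were Ntng1, a membrane-anchored netrin (72.1 against 127 CPM, -0.80), Igsf21, a ligand of neurexin 2 (21.7 against 39.2 CPM, -0.82), and the teneurin Tenm3 (31.4 against 48.9 CPM, -0.59). Each was lower in 4 of 4 libraries, beside the S100b and Npy differences between the same groups given above. Of 30 partners tested, the scaffold gene Magi3 was called lower (32.6 against 49.3 CPM, -0.58). No gene of either list was called in the other 4 subtypes.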

How the data were processed

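The authors deposited, for each of the 4 libraries, a matrix of UMI counts per gene and cell barcode made with Cell Ranger 3.0.2, and a table of cells with subtype names, percent of mitochondrial and ribosomal UMIs and cell-cycle scores, of which the percent and score columns were not used. Per the labels the build was mm10. Other tools named in the processing notes were Seurat 3.1.4 and Scanpy.

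Here raw UMIs were summed per library and subtype, or per library, subtype and barcode group (at least 10 neurons), and scaled to CPM. Barcode groups were tested with edgeR 4.0.16 (quasi-likelihood, TMM factors, filterByExpr, Benjamini-Hochberg over all genes tested) with library as block, since both groups came from 1 library. Deviations of the 2 groups correlated at 0.106 to 0.722 in the fits of 4 libraries and -0.05 to 0.03 in L2/3-Calb1 and L5-Bcl6. Other cells (500 to 8000 genes, 1000 to 60000 UMIs, at most 20% mitochondrial) were clustered with scanpy 1.11.5 without the 8 genes and named from marker lists. The rule for reading MGE and CGE markers, only within inhibitory clusters, was revised after seeing the clusters. In all, 10 clusters of 893 cells stayed unnamed. No doublet caller was run.

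The 8 genes and both lists were chosen with earlier results of these data known. The text names every member, the list genes called (at most 5 per list and subtype, by adjusted p), and genes nearest to the members in pattern, of which that of Nlgn2 is not reported here. Alternatives were DESeq2 1.42.0, no filter, no block, 1 or more barcode UMIs, neurons of 10000 to 40000 UMIs, other scalings and each library left out. The edgeR steps were tested on simulated data. Sequences were read from the GRCm38 genome and its GENCODE annotation.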

Additional observations from a re-analysis of the deposited data

Results flagged for a closer look

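The change with the barcode was called different between subtypes, by a test of the difference itself, in 3 cases. For Cbln1 it was -0.80 on the log2 scale between L6-Syt6 and L5-S100b and -0.79 between L6-Syt6 and L6-Npy. For Cbln2 it was -0.91 between L6-Syt6 and L6-Npy. The barcode-high neurons of L6-Syt6 held less of both genes in 4 of 4 libraries, whereas Cbln2 was higher with the barcode in 4 of 4 libraries in L6-Npy. Which of the 3 passed depended on the libraries entered, and the values are given with the processing alternatives. Each group of 4 libraries was also checked for a library far from the others, and none of the 32 groups passed the limit of that check, where chance gives about 1.6. The limit is wide for 4 values. In L5-S100b, unsorted library 3 stood apart by a gap of 0.776 of the whole range for Cbln2 and 0.756 for Cbln4, and leaving it out turned Cbln4 from -0.94 to 0.98 and moved Cbln2 from 0.26 to 1.31 on the log2 scale.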

How the results depend on the processing

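The calls of Cbln1 and Cbln2 in L6-Syt6 depended on the libraries entered. Without the replicate block 1 member (Cbln2) was called in place of 2, leaving out 1 library left 0 to 1, and 1 or more barcode UMIs against 0 gave 0. Neurons without UMIs of Tshz2, Cplx3 and Nxph4, an alternative added after seeing the data, also gave 0. Without unsorted library 2, Cbln1 had an edgeR adjusted p of 0.132 and Cbln2 of 0.094. Both genes stayed negative under every alternative run (leave-one-out log2 fold changes -0.65 to -0.46 for Cbln1 and -0.61 to -0.46 for Cbln2). DESeq2, no filter, and neurons of 10000 to 40000 UMIs each gave 2. The count was 0 to 1 in L5-S100b with a library left out (1 without unsorted library 3, Cbln2), and 1 in L6-Npy without the filter (Cbln4, log2 2.91, adjusted p = 0.0295). The count of interactions was 8 without the filter and 0 to 2 with a library left out: 0 without unsorted library 1, 1 (Nrxn3) without 2, 2 (both Cbln2) without 3, and 2 (both Cbln1) without the sorted library. The block changed no other count of members called.

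Members with a leading subtype apart in all libraries numbered 2 in barcode-zero neurons alone, 3 by the mean of each cell's own CPM, 6 with TMM scaling and 5 to 7 with a library left out, against 5. TMM scaling raised the median gene in L6-Syt6 by 0.16 and lowered it in L5-Htr2c by -0.11 on the log2 scale.

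Values that changed sign were small or sparse, except Cbln2 in L5-S100b. Cbln4 in L5-S100b was sparse, with 5, 1, 25 and 1 UMIs in its barcode-zero sums. With DESeq2, Cbln4 in L5-S100b was 0.17. Without the filter Nlgn3 in L5-S100b was 0.012 and Nrxn3 in L2/3-Rorb 0.014, and in the added alternative Nlgn1 in L6-Syt6 was -0.022. With a library left out the ranges were, in L6-Syt6, -0.46 to 0.21 for Cbln4 and -0.0075 to 0.045 for Nlgn1. In L5-S100b they were -0.051 to 1.31 for Cbln2, -1.34 to 0.98 for Cbln4, -0.073 to 0.018 for Nlgn3 and -0.013 to 0.086 for Nrxn3. In L6-Npy they were -0.11 to 0.075 for Nlgn1, -0.14 to 0.023 for Nlgn2 and -0.047 to 0.056 for Nlgn3. In L2/3-Rorb they were -0.51 to 0.13 for Cbln4, -0.0075 to 0.099 for Nlgn2 and -0.12 to 0.038 for Nlgn3. In L2/3-Calb1 they were -0.15 to 0.070 for Nrxn2 and -0.089 to 0.079 for Nrxn3, and in L5-Bcl6 -0.012 to 0.16 for Nlgn1 and -0.20 to 0.037 for Nlgn3. The cause of these changes was not tested.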
